A study of Mus musculus with 26 samples.

Results

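The genes that lie around Tmem106b on mouse chromosome 6 were examined for differences between microglia libraries that carry different numbers of working Tmem106b copies. The genes were those whose annotated start, taken as the lower coordinate, lies within 5 Mb of either end of Tmem106b in GRCm38 (8069759 to 18089269), other than Tmem106b and 1 further gene, and that had 10 or more counts in 3 or more libraries. Of 94 annotated genes that start in this window, 30 met the count rule, and 21509 genes of the whole series meet the same count rule. The 30 flanking genes comprise 22 protein-coding genes and 8 others (4 pseudogenes, 2 long intergenic RNAs, 1 antisense RNA and 1 transcript awaiting experimental support). They lie upstream of Tmem106b in 11 cases and downstream in 19, and 7 of those tested start within 1 Mb of it. Distances run from the lower coordinate of a gene to the nearest end of Tmem106b.

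The study measured polyA RNA from mouse microglia of 7 genotypes in 26 libraries, to ask what full or partial loss of Tmem106b does in mice that lack 1 or both copies of Grn. The groups were Tmem106b KO with Grn WT (n = 4), Tmem106b HET with Grn WT (n = 4), Tmem106b WT with Grn WT (n = 3), Tmem106b HET with Grn HET (n = 3), Tmem106b WT with Grn HET (n = 5), Tmem106b HET with Grn KO (n = 3) and Tmem106b WT with Grn KO (n = 4). KO means that both copies of a gene carry the mutant allele, and HET that 1 copy does. A Tmem106b KO group on a Grn HET or Grn KO background was not analysed here. The labels add the sex and a dissection label (Entire or Hemi, not explained further). Strain, age, the way the microglia were isolated and the way the alleles were made are not given in the sources used here, and neither is whether each library is a separate animal, so p-values reflect only the variation among these libraries.

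The product of Tmem106b is a transmembrane protein found in the endolysosomal system, and Grn encodes progranulin, a secreted and lysosomal glycoprotein. Genes next to an engineered allele are inherited together with it, so that neighbouring DNA of the strain in which the allele was made can travel with it through later crosses, and an allele can also alter transcription of its neighbours in cis. A comparison of flanking genes over KO, HET and WT libraries is therefore a usual check in mouse knockout studies.

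The libraries held 37562732 to 63710833 counts each. Gene levels are CPM, counts relative to the effective (TMM-scaled) library size, and marker sums are CPM relative to the total count. All 10 microglia markers were detected in every library, and their summed level ranged from 9060 to 55100 CPM. The summed level of 10 neuron markers, all detected in every library, ranged from 48.4 to 6910 CPM. It was highest in Tmem106b KO Grn WT replicate 2 (6913 CPM) and Tmem106b HET Grn KO replicate 3 (6574 CPM), and in those libraries the microglia sum was 9294 and 9061 CPM. Both carry the dissection label Hemi. The main values that these libraries touch are also given without both of them, a setting chosen after the data were seen. In bulk libraries, fewer cells of a type and less RNA per cell cannot be told apart.

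The flanking genes differ widely in their microglial level. Capza2, a subunit of the actin filament capping protein, was the most abundant by far on both the CPM and the length-corrected scale, with 377 to 1429 CPM and a median of 309 RPKM. Tmem168, a multi-pass membrane protein, followed with a median of 18.5 RPKM, and then came 2610001J05Rik with 15.9 and Tes, a LIM-domain protein of focal adhesions, with 12.5 RPKM. At the low end, Gm43533, Gm15473, Wnt2, Met and Gm4876 were at 0 counts in 18, 12, 13, 11 and 10 of the 26 libraries. Gm15473 fell below the filter on low counts, so that 29 of the 30 genes were tested, and 18 of the 30 averaged 5 CPM or more.

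There are 3 pairs of these genes that start close to each other on opposite strands, and the 2 with the fewest bases between them are shown because the genes on either side have unequal CPM. Rpa3, the smallest subunit of the single-strand DNA binding complex RPA, and Umad1 are separated by 114 bases, and 2610001J05Rik and the long intergenic RNA 1110019D14Rik by 7 bases. The sequences are RefSeq promoter windows in GRCm38.p6, from 250 bases before to 50 after an annotated start, read on the plus strand 5′ to 3′, and capitals mark the bases between the paired gene starts. The windows lie at chr6:8259038-8259337 for Umad1 and chr6:13871319-13871618 for 1110019D14Rik.
Umad1: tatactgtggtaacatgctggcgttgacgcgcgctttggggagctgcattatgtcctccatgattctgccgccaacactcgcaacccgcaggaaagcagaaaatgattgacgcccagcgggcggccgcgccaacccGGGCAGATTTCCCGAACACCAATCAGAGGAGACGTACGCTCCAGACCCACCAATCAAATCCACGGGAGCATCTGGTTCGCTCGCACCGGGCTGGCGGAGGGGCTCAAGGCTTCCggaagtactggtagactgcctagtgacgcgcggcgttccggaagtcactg
1110019D14Rik: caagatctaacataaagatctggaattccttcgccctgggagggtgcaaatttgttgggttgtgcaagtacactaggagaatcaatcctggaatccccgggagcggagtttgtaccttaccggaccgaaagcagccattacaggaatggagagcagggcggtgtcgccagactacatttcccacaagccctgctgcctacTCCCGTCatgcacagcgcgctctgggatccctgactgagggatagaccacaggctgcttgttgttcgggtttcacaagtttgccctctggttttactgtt
Across all 26 libraries Umad1 had 12.7 to 64.3 CPM and Rpa3 3.47 to 12.1 CPM. On the length-corrected scale their order was the reverse, with medians of 3.86 RPKM for Umad1 and 6.07 RPKM for Rpa3. On the other pair, 2610001J05Rik had 40.2 to 108 CPM and 1110019D14Rik 0.245 to 7.08 CPM, with medians of 15.9 and 2.15 RPKM. Of the 30 flanking genes, 23 had a RefSeq promoter window.

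The targeted gene itself was measured first as a check of the labels. Tmem106b had 24.0, 26.7, 26.4 and 35.7 CPM in the KO Grn WT libraries, 71.8, 46.4, 83.4 and 39.1 CPM in the HET Grn WT libraries, and 88.6, 68.7 and 75.5 CPM in the WT Grn WT libraries. All 4 KO libraries lay below every HET and every WT library, while HET and WT overlapped. The mean was 28.2 ± 5.13 CPM in KO (SD, n = 4), 60.1 ± 20.9 CPM in HET (SD, n = 4) and 77.6 ± 10.1 CPM in WT (SD, n = 3), so that KO libraries kept 36.3% of the WT level. KO over WT gave a log2 fold change of -1.49 (SE 0.22, adjusted p = 0.027, edgeR quasi-likelihood test), and KO over HET one of -1.19 (SE 0.21, adjusted p = 0.094, edgeR). The exact two-sided permutation test of KO against WT gave p = 0.029, the smallest that these group sizes allow (0.073 after adjustment over 5 such tests). The edgeR call was lost when any library of the comparison other than KO replicate 4 was left out (6 of 7), with log2 fold changes that stayed between -1.57 and -1.44. Which exons the allele removes is not given in the sources used here, so the remaining counts cannot be assigned to intact or altered transcripts. Over the 3 Grn backgrounds, the HET over WT log2 fold change of Tmem106b averaged -0.34 (95% interval -0.60 to -0.08, unadjusted p = 0.014, adjusted p = 1.0, edgeR). Its paralogs on other chromosomes, Tmem106a and Tmem106c, had KO over WT log2 fold changes of -0.14 (SE 0.29) and -0.02 (SE 0.20).

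No flanking gene was called between Tmem106b KO and WT libraries at an adjusted p under 0.05 (0 of 29, edgeR), where 0.00468% of all 21371 genes tested were called, namely Tmem106b alone. At an unadjusted p under 0.05 there were 2 of 29 flanking genes (6.9%), both higher in KO, against 11.0% of all genes. DESeq2 called 2 flanking genes, Ica1 and Gm43533, where it called 545 of all 21371 genes, and limma-voom called 0. The KO and WT libraries overlapped for all 29, where 4.6% of all genes did not overlap. The median log2 fold change of the 29 was 0.28, against 0.07 over all genes tested.

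The neighbours closest to Tmem106b with substantial expression showed no call. By its upper end (12749410), Thsd7a, described further below, lies nearer to Tmem106b (13069759 to 13089269) than Tmem168 does. Tmem168, the nearest flanking gene by lower coordinate at 0.49 Mb downstream, had 111, 30.1, 89.8 and 131 CPM in KO Grn WT libraries, 106, 152, 63.5 and 126 CPM in HET Grn WT libraries, and 119, 84.8 and 120 CPM in WT Grn WT libraries. The low KO value belongs to replicate 2, the library with the highest neuron marker sum, and the other 3 KO libraries lay within or close to the WT range. Its KO over WT log2 fold change was -0.42 (95% interval -1.10 to 0.25, adjusted p = 0.63, edgeR), and it was -0.14 without the 2 libraries of highest neuron markers. HET over WT averaged -0.11 over the 3 backgrounds (95% interval -0.50 to 0.27).

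Bmt2, which encodes the protein known in human cells as SAMTOR, a sensor of S-adenosylmethionine upstream of mTORC1, starts 0.54 Mb downstream. It had 33.2, 26.9, 36.9 and 33.9 CPM in KO Grn WT libraries, 30.1, 46.7, 46.4 and 38.7 CPM in HET Grn WT libraries, and 41.2, 34.2 and 47.4 CPM in WT Grn WT libraries. KO had the lowest mean of the 3 groups, and its values overlapped those of both other groups. The log2 fold change was -0.35 for KO over WT (95% interval -0.74 to 0.04, unadjusted p = 0.079, adjusted p = 0.49, edgeR) and -0.41 for KO over HET (95% interval -0.78 to -0.03, unadjusted p = 0.037, adjusted p = 0.24, edgeR). Both comparisons use the same KO libraries. HET over WT averaged 0.00 over the 3 backgrounds (95% interval -0.22 to 0.23). That interval does not reach the -0.35 estimated for KO over WT, but it covers smaller differences in HET libraries.

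On the upstream side, Phf14, a PHD-finger protein that binds histones and starts 1.16 Mb away, had 26.7, 8.36, 26.9 and 20.4 CPM in KO Grn WT libraries, 29.3, 21.8, 15.1 and 22.4 CPM in HET Grn WT libraries, and 14.7, 12.9 and 29.6 CPM in WT Grn WT libraries. The KO over WT log2 fold change was 0.03 (95% interval -0.60 to 0.66), and 0.27 without the 2 libraries of highest neuron markers. The groups overlapped over most of their range. The head-to-head pair 0.78 Mb downstream gave 0.05 for 2610001J05Rik (95% interval -0.38 to 0.47) and -0.29 for 1110019D14Rik (95% interval -1.95 to 1.38). The long intergenic RNA, at the lower level, had the wider interval. Gpr85, between them and Bmt2 on the map, had 1.39, 30.3, 6.35 and 3.98 CPM in KO Grn WT libraries, 2.83, 1.21, 7.03 and 5.64 CPM in HET Grn WT libraries, and 1.57, 13.8 and 1.24 CPM in WT Grn WT libraries, with a KO over WT log2 fold change of 1.30 (95% interval -0.68 to 3.28), and 0.97 without the 2 libraries of highest neuron markers. The pseudogenes Gm6578 and Gm8744, 0.97 and 2.19 Mb upstream, stayed under 1 CPM in every library, with KO over WT log2 fold changes of 0.69 (95% interval -0.88 to 2.25) and 0.16 (95% interval -2.06 to 2.38).

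Of the more distant genes, Capza2, 4.55 Mb downstream, had 1429, 379, 994 and 1014 CPM in KO Grn WT libraries, 1056, 1117, 747 and 1051 CPM in HET Grn WT libraries, and 985, 727 and 1331 CPM in WT Grn WT libraries. Its KO over WT log2 fold change was -0.20 (95% interval -0.70 to 0.29), and 0.04 without the 2 libraries of highest neuron markers. Over the 18 flanking genes of 5 CPM or more on average, KO over WT log2 fold changes ranged from -0.47 for Tes to 2.32 for Ica1. For the 3 abundant genes nearest to the locus or highest in level (Tmem168, Bmt2 and Capza2), the lower bound of the KO over WT interval lay above the estimate of -1.49 for Tmem106b. The 95% interval of Tmem106b itself was -1.95 to -1.04. It overlapped the interval of Tmem168 but not those of Bmt2 and Capza2.

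**Figure D1:**
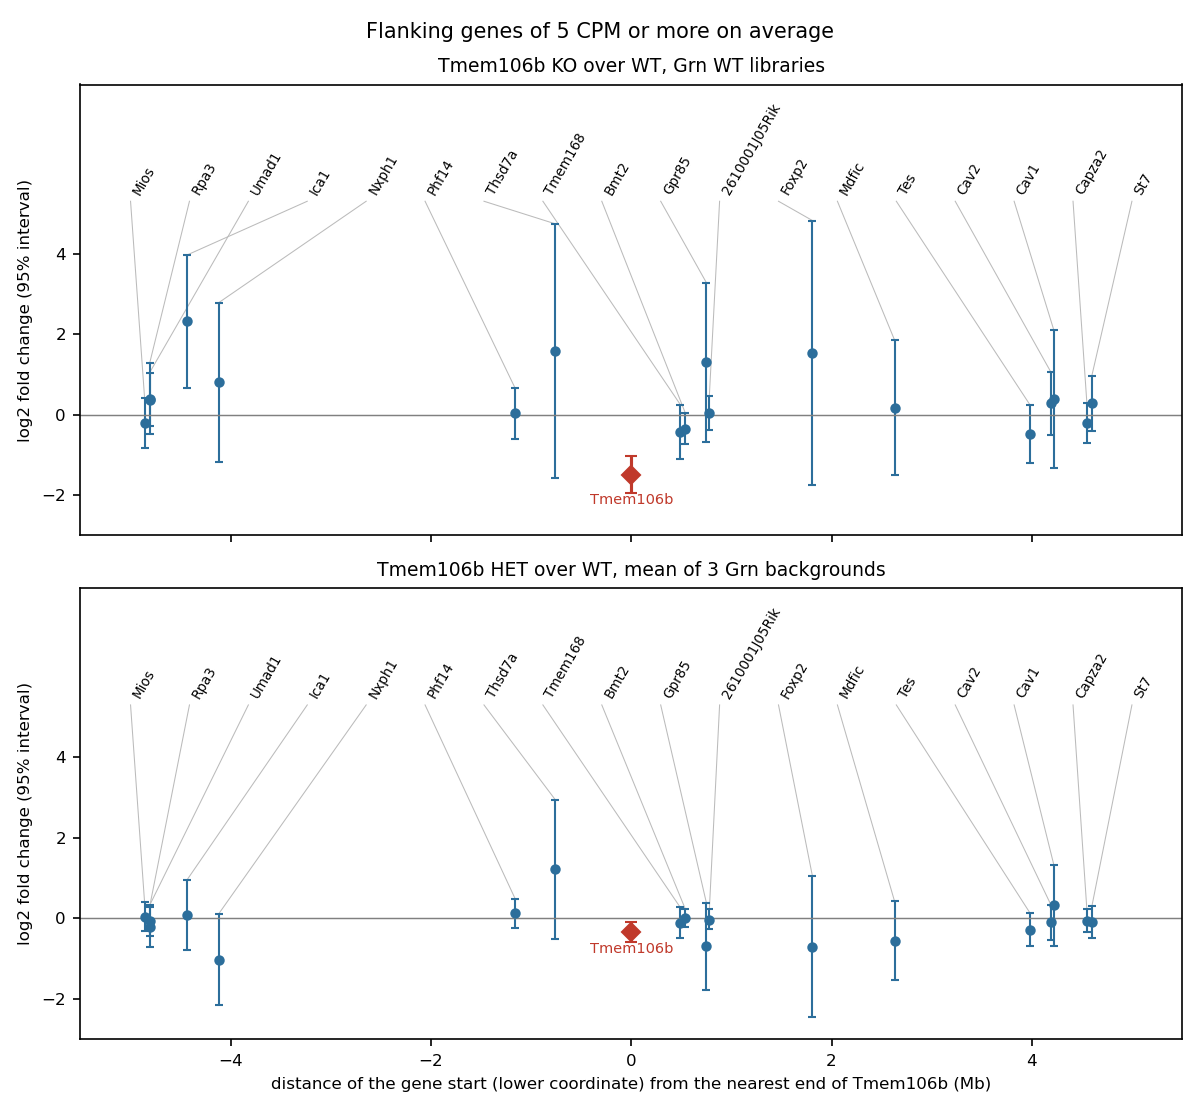
Log2 fold change with its 95% interval (y axis) against the distance of the gene start (lower coordinate) from the nearest end of Tmem106b in Mb (x axis) for the 18 flanking genes of 5 CPM or more on average (circles) and Tmem106b (diamond), for Tmem106b KO over WT in Grn WT libraries (top) and HET over WT averaged over 3 Grn backgrounds (bottom). Among the flanking genes of the top panel only Ica1, 4.44 Mb upstream, has an interval that does not reach 0, and Tmem106b sits at -1.49.

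**Figure D2:**
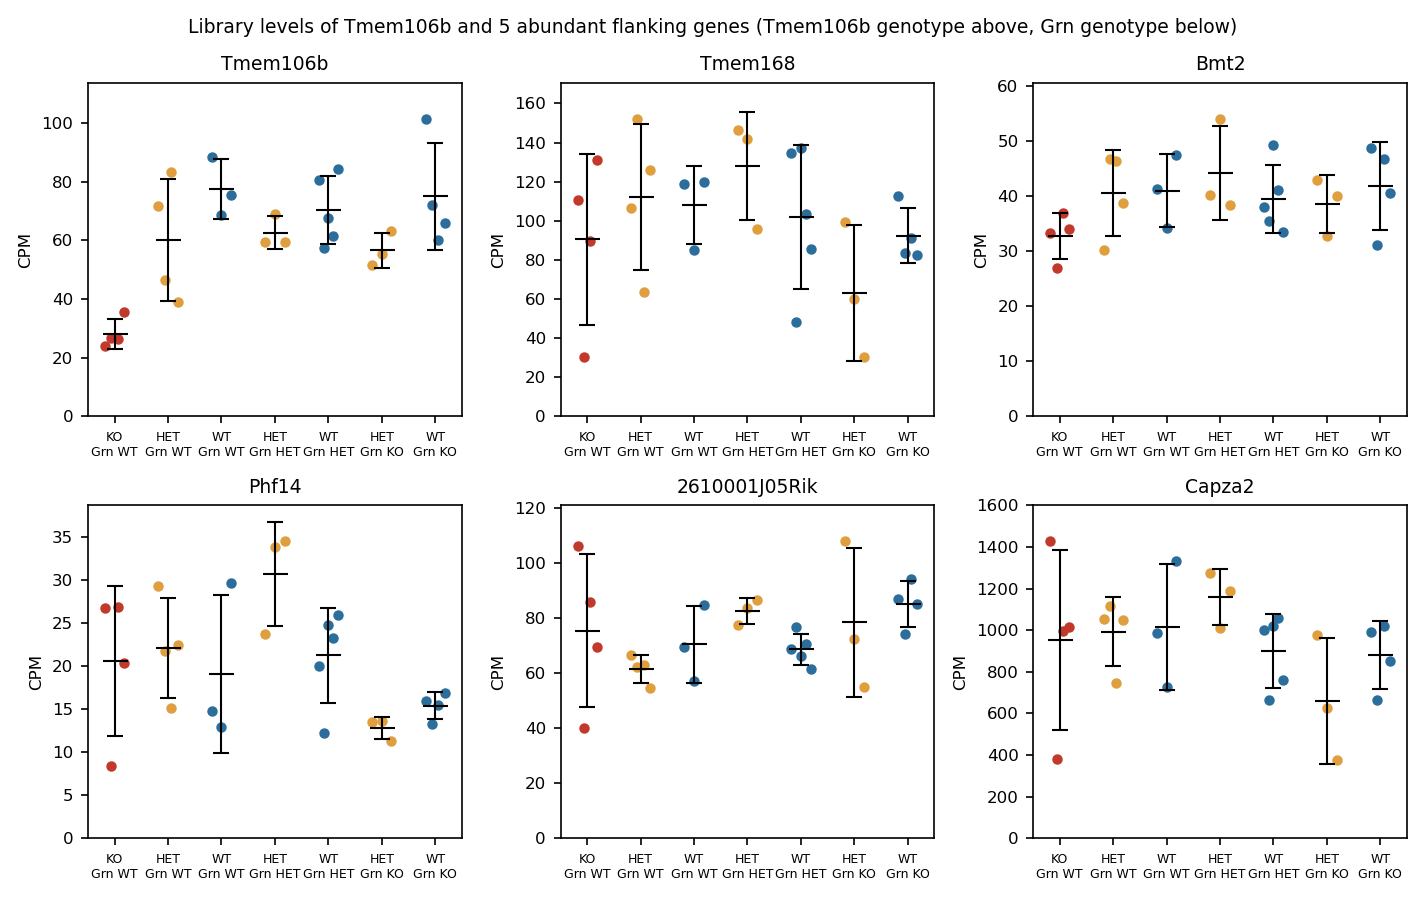
CPM in each library (points), with the group mean and SD (black), for Tmem106b and 5 flanking genes, in the 7 groups ordered as Tmem106b KO, HET and WT within each Grn genotype. Tmem106b lies at 24.0 to 35.7 CPM in KO libraries, below the other groups, while the KO libraries of the flanking genes overlap the WT libraries.

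The position of the differences along the chromosome was also described. Of the 7 tested flanking genes within 1 Mb, 0 had an unadjusted p under 0.05 between KO and WT (edgeR), and the median of their absolute log2 fold changes was 0.42, against 0.39 over the 29 flanking genes and 0.53 over all genes tested. In the next 5 Mb on either side, 52 genes of the outer flank were tested, of which 0 were called and 8 (15.4%) had an unadjusted p under 0.05. These 8 were all higher in KO. Over the 1132 genes of chromosome 6 outside the list the share was 11.1%. In 10 Mb steps along the chromosome, the share with an unadjusted p under 0.05 was 17.1% of 41 genes in the first step and 6.25% of 32 genes in the second, the steps that hold the window, and the other 13 steps ranged between 6.25% and 16.2%. The first step thus had the highest share of the 15, and its 7 genes were all higher in KO. It spans 0 to 10 Mb, most of which lies before the window (from 8069759), and 1 of the 7 genes, Ica1, is a flanking gene. These shares include KO replicate 2, the library of highest neuron marker sum. Between KO and HET, which share the KO libraries with this comparison, the first step again had the highest share (26.8%, 11 genes, all higher in KO) and the second the lowest (6.25%), where all genes gave 18.7%. Of the 7 tested flanking genes that start 2.5 to 5 Mb upstream, 3 (42.9%) had an unadjusted p under 0.05 between KO and HET, and 1 (14.3%) between KO and WT.

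Among the 18 flanking genes of 5 CPM or more on average, Ica1, Thsd7a, Foxp2 and Gpr85 had the largest KO over WT log2 fold changes, and each was highest among the KO libraries in replicate 2. Ica1, a BAR-domain protein of secretory vesicles, had 5.32, 70.2, 7.93 and 4.70 CPM in KO Grn WT libraries, 0.832, 1.56, 8.98 and 14.4 CPM in HET Grn WT libraries, and 1.70, 13.4 and 0.722 CPM in WT Grn WT libraries. KO replicate 2 stood apart at 70.2 CPM, and the other 3 KO libraries lay between the WT values. The log2 fold change was 2.32 for KO over WT (SE 0.79, unadjusted p = 0.0083, adjusted p = 0.43, edgeR) and 2.31 for KO over HET (SE 0.71, adjusted p = 0.12, edgeR), from the same KO libraries. Without the 2 libraries of highest neuron markers these values were 1.97 and 1.92, and with single libraries left out they lay between 1.95 and 2.61 and between 1.91 and 2.64. With the neuron, oligodendrocyte and choroid plexus marker sums as further covariates, the KO over WT value was 0.32 and the KO over HET value was -0.06.

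Nxph1, a secreted ligand of neurexins, had 7.55, 114, 19.0 and 6.11 CPM in KO Grn WT libraries, 1.80, 2.66, 21.2 and 26.01 CPM in HET Grn WT libraries, and 1.59, 55.7 and 9.68 CPM in WT Grn WT libraries. In each of these groups 1 or 2 libraries were an order of magnitude above the lowest. These were the Hemi libraries, namely KO replicate 2, HET replicates 3 and 4 and WT replicate 2. The same libraries held the highest Ica1 values of their groups. Dissection was a covariate of the fit, and its part in these levels was not tested. The KO over HET log2 fold change of Nxph1 was 2.0 (adjusted p = 0.24, edgeR), and 1.79 without the 2 libraries of highest neuron markers. Thsd7a, a membrane protein with thrombospondin repeats whose gene has its lower coordinate 0.76 Mb upstream, had 1.46, 34.1, 2.65 and 1.19 CPM in KO Grn WT libraries, 2.91, 0, 11.5 and 9.57 CPM in HET Grn WT libraries, and 2.11, 3.61 and 0.491 CPM in WT Grn WT libraries. Its KO over WT log2 fold change was 1.58 (95% interval -1.57 to 4.74), and 0.41 without the 2 libraries of highest neuron markers. Again KO replicate 2 held the high value.

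In both Tmem106b KO Grn WT replicate 2 and Tmem106b HET Grn KO replicate 3, the libraries with the highest neuron marker sums, 6 flanking genes lay above all 24 other libraries (Umad1, Ica1, Nxph1, Thsd7a, Gpr85 and Foxp2). In the same libraries 4 lay below all others (Phf14, Tmem168, Tes and Capza2). The 6 make up 20.7% of the 29 flanking genes tested, where 12.8% of all genes lay above in both, and the 4 make up 13.8%, where 12.7% of all genes lay below in both. The remaining 20 of the 30 flanking genes lay in neither place. Foxp2, a forkhead transcription factor of neurons, had 37.9 and 54.2 CPM there, against 0 to 24.2 CPM in the other 24 libraries. Gpr85, an orphan receptor enriched in brain, had 30.3 and 24.2 CPM, against 0 to 22.7 CPM. Capza2 had 379 and 377 CPM, against 625 to 1429 CPM, and Tes 8.67 and 6.64 CPM, against 24.9 to 62.6 CPM. The part of the neuron marker level in each fold change was not tested beyond the values given.

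**Figure D3:**
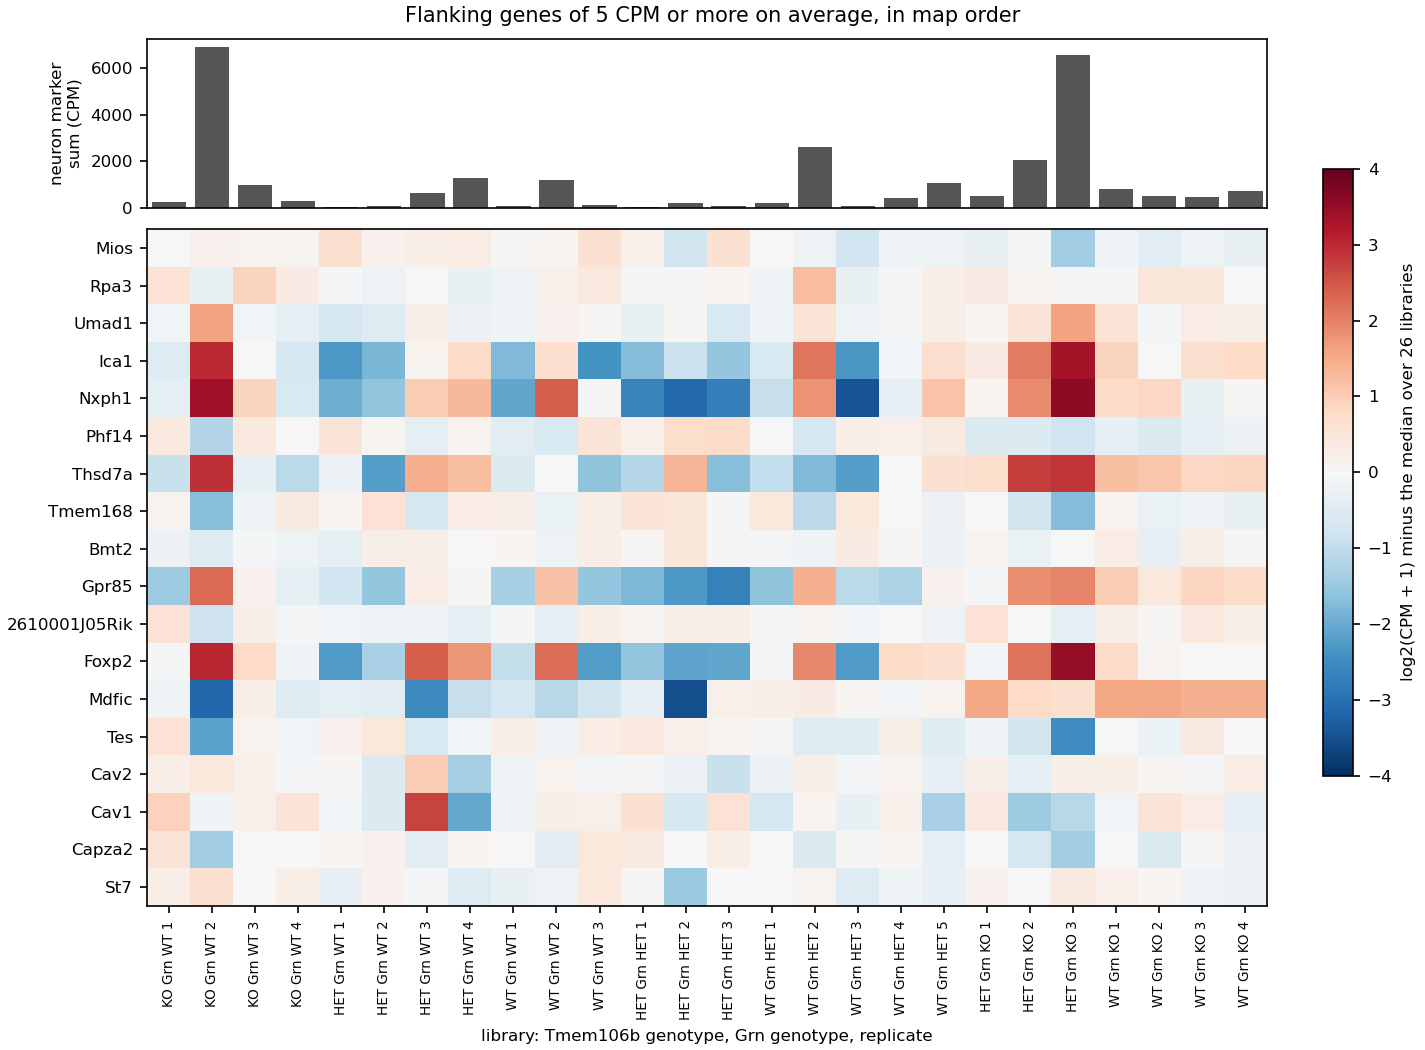
Summed CPM of 10 neuron markers in each of the 26 libraries (bars), above a heat map of log2(CPM + 1) minus the median over the 26 libraries for the 18 flanking genes of 5 CPM or more on average, in map order from upstream to downstream (rows). The columns with the tallest bars, 6913 and 6574 CPM, are red for Ica1, Nxph1, Thsd7a, Gpr85 and Foxp2 and blue for Tmem168, Tes and Capza2.

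Between Tmem106b KO and HET libraries on the Grn WT background, 0 of 29 flanking genes were called (edgeR), where 0.0% of all genes tested were, and 4 (13.8%) had an unadjusted p under 0.05, against 18.7% of all genes. Higher in KO at that unadjusted level were Ica1, Umad1 and Nxph1, and lower was Bmt2. DESeq2 called 1 flanking gene, Ica1, where it called 1964 of all 21371 genes, and limma-voom 0. The groups did not overlap for 2 of 29 flanking genes, where 4.18% of all genes did not overlap. These were Mios, a subunit of the GATOR2 complex that activates mTORC1, with 22.1, 24.9, 24.3 and 23.6 CPM in KO libraries, against 35.1, 25.2, 26.7 and 27.4 CPM in HET libraries, and the pseudogene Gm6578 with 0.322, 0.296, 0.217 and 0.233 CPM in KO libraries, against 0.178, 0.0550, 0.142 and 0.0647 CPM in HET libraries. Every Mios value in KO was below every HET value by a small margin, and its log2 fold change was -0.36 (SE 0.28, adjusted p = 0.52, edgeR). The WT Grn WT libraries, at 22.6, 23.8 and 33.9 CPM, overlapped the KO values. Gm6578 is a low transcript, and its log2 fold change was 1.48 (SE 0.71, adjusted p = 0.27, edgeR).

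Partial loss of Tmem106b was compared on each Grn background. In Grn WT libraries 0 of 29 flanking genes were called between Tmem106b HET and WT (edgeR, 0.0% of all genes), in Grn HET libraries 0 of 29 (0.0% of all genes), in Grn KO libraries 0 of 29 (0.0% of all genes), and over the 3 backgrounds together 0 of 29 (0.0% of all genes). At an unadjusted p under 0.05 these comparisons gave 1 (3.45%), 5 (17.2%), 1 (3.45%) and 0 (0.0%) of 29 flanking genes, against 3.49%, 6.79%, 3.79% and 3.88% of all genes. DESeq2 called Gm43533 in Grn WT and Nxph1 in Grn HET libraries, where it called 265 and 515 of all 21371 genes, and limma-voom called 0 in each. Over the 3 backgrounds, the median log2 fold change was -0.09 for the flanking genes and -0.05 for all genes tested.

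The 5 genes at an unadjusted p under 0.05 in Grn HET libraries were all lower in Tmem106b HET, and 4 of them were Nxph1, Gpr85, Foxp2 and Wnt2. Nxph1 had 0.702, 0.267 and 0.652 CPM in Tmem106b HET Grn HET libraries, against 4.75, 36.6, 0, 7.34 and 22.9 CPM in Tmem106b WT Grn HET libraries. One WT library was at 0, below all 3 HET libraries, and the other 4 were above them. Nxph1 had a log2 fold change of -3.24 (SE 1.11, adjusted p = 0.65, edgeR). Gpr85 had 0.882, 0.324 and 0 CPM in the HET libraries, against 1.14, 16.7, 2.06, 1.71 and 6.26 CPM in the WT libraries, with no overlap, and its log2 fold change was -2.22 (SE 1.04, adjusted p = 0.73, edgeR). The summed level of 5 choroid plexus and ependymal markers did not overlap between these groups, at 2.66 to 48.6 CPM in the HET libraries, against 70.0 to 26400 CPM in the WT libraries. The neuron marker sum overlapped, at 48.4 to 196 CPM in the HET libraries, against 83.9 to 2620 CPM in the WT libraries. The part of either marker sum in the difference was not tested. All 3 HET libraries carry the dissection label Entire. WT replicates 2 and 5 are Hemi, and they held the highest Nxph1 and Gpr85 values. Dissection was a covariate of the fit. Gpr85, 2610001J05Rik and Gm5721 were the 3 of 29 flanking genes whose groups did not overlap in this comparison, where 6.03% of all genes did not overlap.

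The fifth gene of that comparison was the antisense transcript Gm4876, which overlaps Tes on the opposite strand. It was at 0 in all 3 Tmem106b HET Grn HET libraries, against 0.0579, 0, 0, 0.313 and 1.37 CPM in Tmem106b WT Grn HET libraries. With a floor of 3 counts over the HET group it was at least 17.7-fold lower there. Most of the WT level came from replicate 5, and without knowledge of strand in the counting its reads cannot be told apart from those of Tes.

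In Grn KO libraries Tes was the 1 flanking gene at an unadjusted p under 0.05. It had 36.7, 24.9 and 6.64 CPM in Tmem106b HET Grn KO libraries, against 42.1, 34.8, 53.5 and 41.5 CPM in Tmem106b WT Grn KO libraries. The groups overlapped by 1 library on each side, and the value of 6.64 CPM came from the library with the neuron marker sum of 6574 CPM. For Tes the log2 fold change was -1.04 (SE 0.36, unadjusted p = 0.0084, adjusted p = 0.92, edgeR), and -0.63 without the 2 libraries of highest neuron markers. The summed level of 5 endothelial markers did not overlap between the groups, at 47.3 to 57.0 CPM in the HET libraries, against 62.6 to 126 CPM in the WT libraries, and its part was not tested. The 1 of 29 flanking genes without overlap was Tfec, a transcription factor of the Mitf and Tfeb family known from macrophages, where 6.13% of all genes did not overlap. Tfec had 1.90, 1.77 and 0 CPM in Tmem106b HET Grn KO libraries, against 2.56, 2.41, 2.67 and 2.51 CPM in Tmem106b WT Grn KO libraries. In Grn WT libraries 0 of 29 flanking genes had separate HET and WT groups, where 4.01% of all genes did.

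Dose order was also examined in Grn WT libraries. The HET mean lay between the KO and WT means for 11 of 29 flanking genes (37.9%), against 35.5% of all genes tested. The difference of the HET over WT effect between Grn backgrounds was tested as an interaction, and 0 of 29 flanking genes were called for Grn HET minus Grn WT (edgeR, 0.0% of all genes called) and 0 of 29 for Grn KO minus Grn WT (0.0% of all genes called). At an unadjusted p under 0.05 there were 3 (10.3%) and 0 (0.0%) of 29 flanking genes, against 5.6% and 4.29% of all genes. DESeq2 called Gm43533 in each interaction, where it called 403 and 207 of all 21371 genes, and limma-voom called 0.

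Some of the lowest genes differ by presence and absence. Wnt2, a secreted Wnt ligand, had 0.0495, 0.473, 0 and 0.697 CPM in KO Grn WT libraries, against 0 in all 3 WT Grn WT libraries, which is at least 12.5-fold higher when the WT group is set to a total of 3 counts. It was not called (log2 fold change 6.51, 95% interval 0.59 to 12.43, unadjusted p = 0.033, adjusted p = 0.44, edgeR). The choroid plexus and ependymal marker sum was 71.97, 374.1 and 694.4 CPM in KO replicates 1, 2 and 4. In WT libraries it was 4.26 to 10.8 CPM. In KO replicate 3, where Wnt2 was at 0, the sum lay within the WT range. In HET Grn WT replicate 2, Wnt2 was at 0 and the sum was 416.7 CPM. The part of this sum in the Wnt2 difference was not tested. Gm43533, which lies within St7 on the same strand, was at 1.13 CPM in 1 KO library and at 0 in the other 3, against 0 in all 3 WT libraries. It was at 0.871 CPM in 1 of the 4 HET Grn WT libraries. Each of these Gm43533 values comes from a single library, and without knowledge of how overlaps were counted its reads cannot be told apart from those of St7. Glcci1, a glucocorticoid-induced transcript, had 0.767, 0.0591, 0.543 and 0.418 CPM in KO, 0.198, 0.312, 0.903 and 0.226 CPM in HET and 0.977, 0.363 and 2.98 CPM in WT libraries, with a HET over WT log2 fold change of -1.07 over the 3 backgrounds (95% interval -2.20 to 0.06).

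Met, the receptor of hepatocyte growth factor, and the caveolins Cav1 and Cav2, which form the coat of caveolae, were high in 1 HET library. Cav1 had 19.7, 8.69, 11.8 and 14.8 CPM in KO Grn WT libraries, 9.21, 6.53, 70.0 and 1.67 CPM in HET Grn WT libraries, and 8.84, 11.98 and 11.8 CPM in WT Grn WT libraries. The same HET library, replicate 3, held 42.7 CPM of Cav2 and 1.58 CPM of Met, the highest values of the series for all 3 genes. It also held the highest summed markers of endothelial cells (688.8 CPM, where the median over all libraries was 61.4) and of oligodendrocytes (25120 CPM, where the median was 2060). The part of these cell types in the Cav1 value was not tested.

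The flanking genes were also compared between Grn genotypes. Between Grn KO and Grn WT libraries, averaged over the Tmem106b HET and WT backgrounds, 8 of 29 flanking genes were called (27.6%, edgeR), where 18.1% of all genes tested were. Of the 29, 5 were higher in Grn KO (Mdfic, Ica1, Wnt2, Umad1 and Gpr85), where 10.7% of all genes were higher, and 3 were lower (Mios, Tes and Capza2), where 7.38% were lower. With the neuron, oligodendrocyte and choroid plexus marker sums as covariates the count was 0, where 113 of all 21371 genes were called. Without the 2 libraries of highest neuron markers the count was 4 (Mdfic, Ica1, Gpr85 and Tes), or 13.3%, where 3056 of all 22184 genes tested were called. Leaving out single libraries gave 4 to 11. It was 4 without Tmem106b HET Grn KO replicate 3, Tmem106b WT Grn KO replicate 1 or Tmem106b WT Grn WT replicate 2, and 5 without Tmem106b HET Grn KO replicate 2, Tmem106b WT Grn KO replicate 3 or 4 or Tmem106b WT Grn WT replicate 1 or 3.

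Mdfic, a MyoD family inhibitor domain protein that binds transcription factors, showed the clearest separation. It had 44.6, 25.7 and 23.2 CPM in Tmem106b HET Grn KO libraries, against 10.8, 10.2, 1.65 and 7.20 CPM in Tmem106b HET Grn WT libraries. On the Tmem106b WT background it had 44.2, 44.5, 40.9 and 40.8 CPM in Grn KO libraries, against 8.61, 6.13 and 8.41 CPM in Grn WT libraries. Grn KO libraries lay above Grn WT libraries without overlap on both backgrounds, where 9.85% (Tmem106b HET) and 8.78% (Tmem106b WT) of all genes did so.

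The log2 fold change of Mdfic was 2.28 (95% interval 1.05 to 3.50, adjusted p = 0.011, edgeR), and the call was kept when any of the 14 libraries was left out. It was 3.05 with adjusted p = 0.13 under the marker covariates. Grn HET libraries with Tmem106b WT held 17.3, 18.6, 15.8, 13.3 and 16.1 CPM, between the Grn KO and the Grn WT libraries of that background. Those with Tmem106b HET held 0.362 to 16.9 CPM (median 11.5). They lay below the Grn KO libraries of that background but overlapped its Grn WT libraries. In the libraries of highest neuron marker sum, Mdfic had 0.769 CPM (Tmem106b KO Grn WT) and 23.2 CPM (Tmem106b HET Grn KO). Each was the lowest value of its group, and the part of the neuron marker level in the Mdfic difference was not tested. Between Tmem106b KO and WT its log2 fold change was 0.17 (95% interval -1.51 to 1.85). The microglia marker sum was 9060 to 32000 CPM in Tmem106b HET Grn KO and 24500 to 31700 CPM in Tmem106b WT Grn KO libraries, against 36300 to 54100 CPM in Tmem106b HET Grn WT and 42300 to 53800 CPM in Tmem106b WT Grn WT libraries, and its part in the Mdfic difference was not tested.

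Ica1, Umad1, Gpr85 and Wnt2 were called higher in Grn KO libraries. The neuron marker sum had a higher median there, with overlapping ranges. On the Tmem106b HET background it was 2050 CPM (509 to 6570) in Grn KO, against 343 CPM (49.1 to 1270) in Grn WT libraries. On the Tmem106b WT background it was 615 CPM (468 to 790) in Grn KO, against 109 CPM (90.3 to 1210) in Grn WT libraries. There the highest Grn WT library exceeded every Grn KO library. The part of the neuron marker sum alone in these differences was not tested. Ica1 had 10.4, 36.2 and 89.8 CPM in Tmem106b HET Grn KO libraries and 15.9, 8.23, 13.2 and 14.5 CPM in Tmem106b WT Grn KO libraries. The corresponding Grn WT libraries, given above, reached 14.4 and 13.4 CPM, so that the groups overlapped on both backgrounds. The log2 fold change of Ica1 was 3.28 (SE 0.58, adjusted p = 0.0010, edgeR), and 0.56 with adjusted p = 0.64 under the marker covariates.

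Umad1 rose by a log2 fold change of 0.82 (SE 0.23, adjusted p = 0.018, edgeR), a call lost without Tmem106b HET Grn KO replicate 3 or Tmem106b WT Grn WT replicate 2. Gpr85 rose by 2.37 (SE 0.68, adjusted p = 0.020, edgeR), a call lost without Tmem106b HET Grn KO replicate 2, Tmem106b WT Grn KO replicate 1 or Tmem106b WT Grn WT replicate 1 or 3. Wnt2 had 0.0618, 0.717 and 6.57 CPM in Tmem106b HET Grn KO libraries and 0.398, 1.35, 0.867 and 0.825 CPM in Tmem106b WT Grn KO libraries. In Grn WT libraries Wnt2 was at 0 in 6 of 7 and at 0.485 CPM in Tmem106b HET replicate 4. The choroid plexus and ependymal marker sum was 15.3 to 795 CPM in Tmem106b WT Grn KO libraries, against 4.26 to 10.8 CPM in Tmem106b WT Grn WT libraries, and its part in the Wnt2 difference was not tested. On the Tmem106b WT background Wnt2 was at least 34.3-fold higher in Grn KO, when the Grn WT group is set to a total of 3 counts.

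The genes that were lower in Grn KO libraries changed by less. With each of the 14 libraries left out in turn, the call was lost 8 times for Mios, 10 times for Tes and 11 times for Capza2. Mios had 17.6, 20.8 and 7.79 CPM in Tmem106b HET Grn KO libraries, against 35.1, 25.2, 26.7 and 27.4 CPM in Tmem106b HET Grn WT libraries, and 20.1, 16.0, 19.2 and 17.9 CPM in Tmem106b WT Grn KO libraries, against 22.6, 23.8 and 33.9 CPM in Tmem106b WT Grn WT libraries. Grn KO lay below Grn WT without overlap on both backgrounds, where 9.37% (Tmem106b HET) and 7.45% (Tmem106b WT) of all genes did so. The log2 fold change was -0.73 (SE 0.22, adjusted p = 0.027, edgeR), and the call was kept only when the library left out was Tmem106b HET Grn KO replicate 2, Tmem106b HET Grn WT replicate 2, 3 or 4, Tmem106b WT Grn KO replicate 2 or Tmem106b WT Grn WT replicate 1.

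Tes fell by 0.79 on the log2 scale (SE 0.26, adjusted p = 0.038, edgeR) and Capza2 by 0.52 (SE 0.17, adjusted p = 0.045, edgeR). The Tes call was kept only without Tmem106b HET Grn KO replicate 1, Tmem106b HET Grn WT replicate 1 or 3 or Tmem106b WT Grn KO replicate 2, and the Capza2 call only without the first, second or last of these. Tmem168, the flanking gene nearest to Tmem106b by lower coordinate, had a Grn KO over WT log2 fold change of -0.67 (SE 0.24, adjusted p = 0.053, edgeR), and Phf14 one of -0.56 (SE 0.22, adjusted p = 0.084, edgeR). Tes, Capza2, Tmem168 and Phf14 are the 4 genes that were lowest in both libraries of highest neuron marker sum, of which 1 is a Grn KO library in this comparison.

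**Figure D4:**
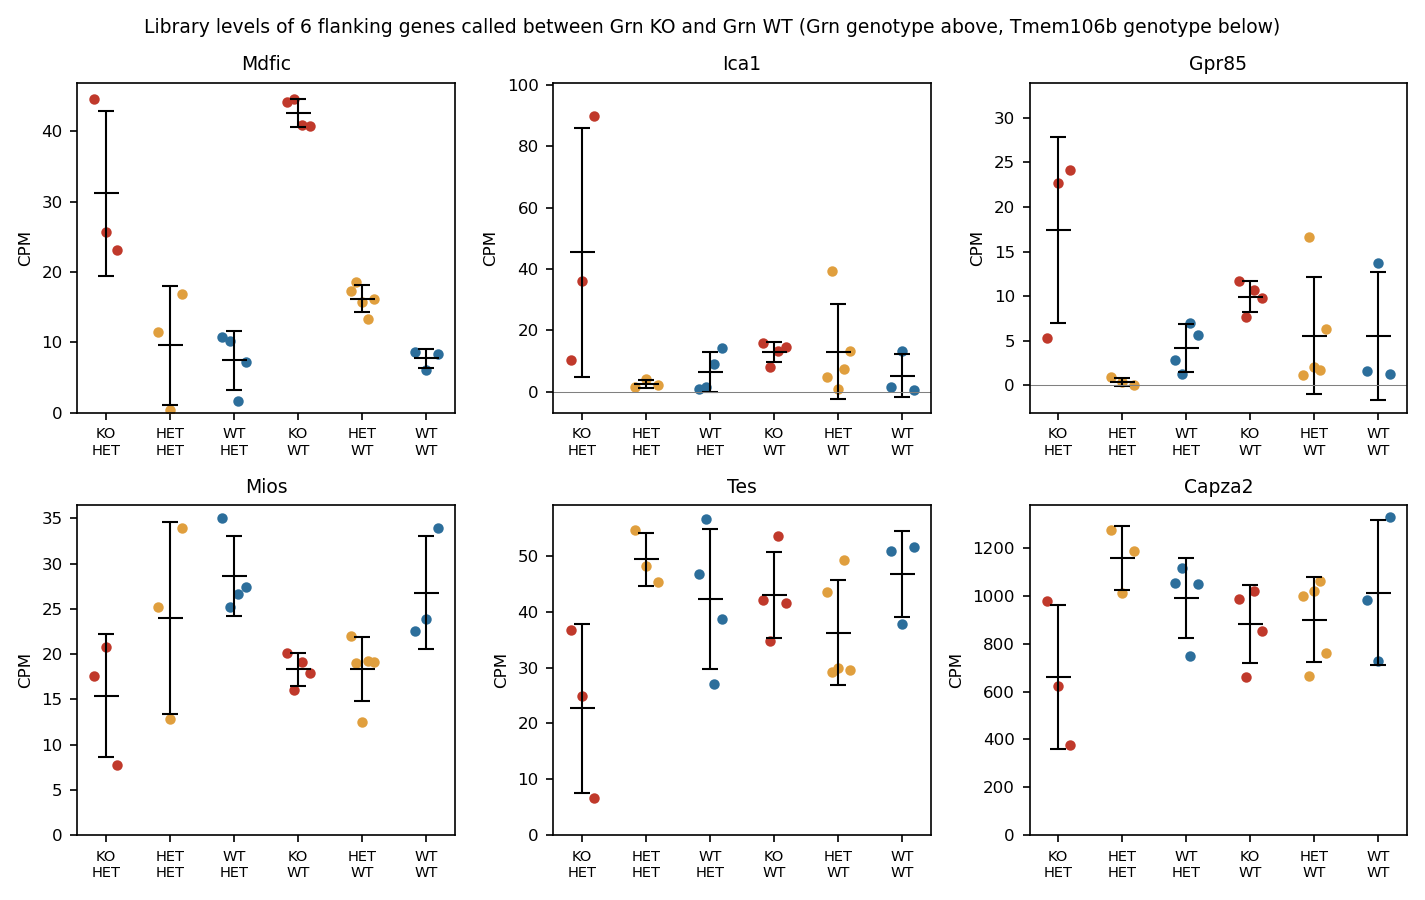
CPM in each library (points), with the group mean and SD (black), for 6 of the 8 flanking genes called between Grn KO and Grn WT, with Grn KO, HET and WT from left to right within the Tmem106b HET (left) and Tmem106b WT (right) backgrounds. Mdfic lies at 23.2 to 44.6 CPM in Grn KO libraries, against 1.65 to 10.8 CPM in Grn WT libraries, while the Ica1, Gpr85, Tes and Capza2 groups overlap.

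The promoter windows of Mdfic and Ica1 are shown because these were the protein-coding flanking genes of the lowest adjusted p between Grn KO and Grn WT. Both are RefSeq windows in GRCm38.p6, printed 5′ to 3′ on the strand of the gene, Mdfic at chr6:15720411-15720710 (plus strand) and Ica1 at chr6:8778435-8778734 (minus strand). Capitals mark the letters of a GC box (GGGCGG, as its reverse complement CCGCCC) in Mdfic and of an E-box (CACGTG) in Ica1.
Mdfic: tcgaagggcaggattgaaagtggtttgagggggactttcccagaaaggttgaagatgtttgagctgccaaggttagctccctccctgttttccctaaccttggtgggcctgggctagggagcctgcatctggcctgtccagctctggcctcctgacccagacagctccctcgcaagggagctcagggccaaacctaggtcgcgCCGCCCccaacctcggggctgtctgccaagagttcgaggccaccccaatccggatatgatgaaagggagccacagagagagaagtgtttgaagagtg
Ica1: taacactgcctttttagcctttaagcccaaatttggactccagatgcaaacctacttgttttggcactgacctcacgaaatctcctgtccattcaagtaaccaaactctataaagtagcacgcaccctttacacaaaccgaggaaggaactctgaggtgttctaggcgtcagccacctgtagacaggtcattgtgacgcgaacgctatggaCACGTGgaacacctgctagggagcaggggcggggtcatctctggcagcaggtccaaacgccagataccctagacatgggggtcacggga
The letters GGGCGG, searched on both strands, were present in the windows of 18 of the 23 flanking genes with a RefSeq entry, against 35.7% of all 32851 promoter windows. The letters CACGTG, the core of the sites to which Tfeb and its relatives are known to bind, were present in 3 of the 23 (Ica1, Met and St7), against 7.15% of all windows. A flanking gene was counted if any of its windows held the letters, while the shares over all are per window. A gene with several windows has more chances, so these counts and shares are not directly comparable. Mdfic had no CACGTG in its window, which says only that these letters are not in those 300 bases.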

How the data were processed

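Sequencing libraries were made with a Smart-Seq V4 kit and Nextera XT, per the labels' protocols, and reads were aligned with GSNAP to GRCm38, per the submitters' processing notes. The deposited tables give, per the file headers, raw read counts over exons per gene and RPKM values (scaled by gene length and library size), which the authors computed. How multi-mapping reads and strand were handled is not given in the sources used here. Genes were matched by Ensembl identifier to GENCODE M21 (52489 of 52636 matched). The flanking genes, lists and tests were chosen with earlier results of these data known.

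All 26 libraries (37562732 to 63710833 counts each) entered 1 fit of 7 group means with sex and dissection as covariates (edgeR 4.0.16, filterByExpr, TMM, robust quasi-likelihood F test, two-sided). Benjamini-Hochberg adjustment ran over all 21371 genes tested, and genes with adjusted p under 0.05 were called. Fold changes and 95% intervals come from this fit, and CPM from the counts and TMM-scaled library sizes (total counts for marker sums). RPKM served only to compare levels between genes. The fit was tested on simulated counts with known fold changes. Alternatives were other scalings, filters, covariates and tools (DESeq2 1.42.0, limma 3.58.1), narrower windows, and leaving out each library. Named genes were Tmem106b, flanking genes called in any comparison, the 5 of smallest p per Tmem106b comparison, the 5 nearest on each side and the 10 of highest mean CPM; Cav1, Rpa3, St7, Gm4876, Gm43533, Gm5721 and Gm15473 were named after their values were seen. Umad1 and Gm8428, Gm4876 and Tes, and St7 and Gm43533 overlap, so that their counts are uncertain. Sequences come from the RefSeq promoter table.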

Additional observations from a re-analysis of the deposited data

Results flagged for a closer look

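Within groups of 4 or 5 libraries, 1 library stood far from the others (Dixon's test) in 14 of 124 sets of values, over Tmem106b and the 30 flanking genes. Chance flags about 1 in 20 such sets, and Tmem106b was not among those flagged.

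Tmem106b KO Grn WT replicate 2 accounts for 5 of the 14. It held 64.3 CPM of Umad1 (the other 3 KO libraries had 15.6 to 18.8), 70.2 CPM of Ica1 (4.70 to 7.93), 114.3 CPM of Nxph1 (6.11 to 19.0), 34.1 CPM of Thsd7a (1.19 to 2.65) and 37.9 CPM of Foxp2 (3.35 to 7.43). The neuron marker sum of the same library was 6913 CPM, against 240 to 991 CPM in the other KO libraries, and its part in these values was not tested.

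The other 9 are single values, mostly of low genes. Cav1 was at 70.0 CPM in Tmem106b HET Grn WT replicate 3 (others 1.67 to 9.21), the library with the highest endothelial and oligodendrocyte marker sums, and Rpa3 was at 12.1 CPM in Tmem106b WT Grn HET replicate 2 (others 3.47 to 5.64). Foxp2 stood at 7.31 CPM in Tmem106b WT Grn KO replicate 1, where the other libraries had 3.81 to 4.24 CPM. Glcci1 was at 0.903 CPM in Tmem106b HET Grn WT replicate 3 (others 0.198 to 0.312). Gm4876 was at 1.37 CPM in Tmem106b WT Grn HET replicate 5 (others 0 to 0.313). Gm43533 was at 1.13 CPM in Tmem106b KO Grn WT replicate 3 and at 0.871 CPM in Tmem106b HET Grn WT replicate 1, with all others of those groups at 0. Gm15473 was at 0.198 CPM in Tmem106b HET Grn WT replicate 1 (others 0 to 0.0183). Wnt2 was at 0.485 CPM in Tmem106b HET Grn WT replicate 4, with all others of that group at 0.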

How the results depend on the processing

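No flanking gene was called in any Tmem106b comparison or interaction under any alternative run except DESeq2, which called 2 between KO and WT, 1 between KO and HET, 1 between HET and WT in Grn WT libraries, 1 in Grn HET libraries and 1 in each interaction. Over all genes, edgeR called 1, 0, 0, 0, 0 and 0 between KO and WT, KO and HET, and HET and WT in Grn WT, Grn HET, Grn KO and all 3 backgrounds together, and DESeq2 545, 1964, 265, 515, 93 and 225. Without KO replicate 4, edgeR called 3 genes between KO and WT and 1128 between KO and HET. Leaving out single libraries gave 0 calls of flanking genes in each of these comparisons. The count between Grn KO and WT was 8, and 13 with DESeq2, 5 with Entire libraries only, 3 with only the groups compared, 2 with sex as the only covariate, 1 without covariates, 0 with marker covariates, 4 without the 2 libraries of highest neuron markers, and 4 to 11 with single libraries left out. Over all genes that comparison gave 3863 calls, and 5811 with DESeq2, 3064 with Entire libraries only, 2223 with only the groups compared, 1388 with sex only, 1097 without covariates, 113 with marker covariates and 3056 without the 2 libraries of highest neuron markers. Windows of 2.5 Mb and 1 Mb held 1 and 1 of the 8, since they hold fewer genes.

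The Tmem106b difference between KO and WT kept its direction in all 19 alternatives. It was no longer called with RLE size factors (-1.43), limma-voom (-1.50), no covariates (-1.46), dissection only (-1.46), the groups compared only (-1.45), Entire libraries only (-1.43), marker covariates (-1.32) or without the 2 libraries of highest neuron markers (-1.48), and lay between -1.57 and -1.44 with single libraries left out, called only without KO replicate 4. The adjusted p ranged between 4.2e-07 and 1.

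Of single flanking genes, Umad1 reversed between KO and WT with Entire libraries only (-0.17), marker covariates (-0.08), without the 2 libraries of highest neuron markers (-0.12) and without Tmem106b KO Grn WT replicate 2 (-0.07), where leaving out single libraries gave -0.07 to 0.58. Thsd7a reversed between KO and WT (-0.40), Ica1 between KO and HET (-0.06) and Nxph1 between Grn KO and WT (-0.12) with marker covariates. The cause was not tested. The marker covariates and the omission of those 2 libraries together were chosen after seeing the data. No paired analysis was possible because the labels give no replicate numbers. Genes at or near 0 counts limit what these depths can show.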
